A study of Mus musculus with 73 samples.

Results

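The genes described here were 57 developmental transcription factors outside the Hox clusters, chosen by symbol from the GATA, Pax, sine oculis, Dlx, LIM homeodomain, Nkx2, T-box, forkhead, Irx and Msx families and from related regulators such as Barx1, Sox9 and Twist1. The rule used names only, and earlier results of these data were known when it was made. The deposited table held a row for 54 of the 57 among its 30546 genes, and Pitx1, Irx3 and Emx2 had none. The measurement was RNA from the epiblast and the extraembryonic ectoderm (ExE) of single mouse embryos, collected at embryonic day 6.5, in 72 libraries of 12 groups. The question put to these data was which of the genes were kept low by Eed, by Rnf2 or by the other targeted factors, and in which of the 2 tissues.

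Polycomb proteins keep developmental regulators silent in cells that do not use them. Eed is a core subunit of Polycomb repressive complex 2 (PRC2), which methylates lysine 27 of histone H3, and Rnf2, also called Ring1b, is the ubiquitin ligase of Polycomb repressive complex 1 (PRC1), which marks histone H2A. In pluripotent cells the promoters of many homeobox, paired-box and T-box genes are rich in CpG and carry both marks, and the factors they encode later pattern limb, heart, neural tube, gut and skeleton. The epiblast gives rise to the embryo itself, and the ExE to part of the placenta.

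The embryos of the main comparisons came from a BDF1 mother and a CAST father, fertilised by sperm injection. Knockouts were made in those zygotes with Cas9 mRNA and several guide RNAs against different exons of Dnmt1 (the maintenance DNA methyltransferase), of G9a and Glp together (Ehmt2 and Ehmt1, which dimethylate histone H3 at lysine 9), of Rnf2 or of Eed. Each such embryo could therefore carry its own mixture of alleles, and no clone or line was used. Wild type BDF1xCAST gave 7 epiblast and 7 ExE libraries, Dnmt1 3 and 3, G9a-Glp 6 and 8, Rnf2 6 and 5, and Eed 9 and 10. Wild type of the reciprocal cross, CASTxBDF1, gave 4 and 4 and came from natural mating, so the cross and the mode of fertilisation cannot be told apart. Injected embryos were transferred to CD-1 females as blastocysts. Epiblast and ExE were dissected apart after enzymatic removal of the visceral endoderm, so both tissues of an embryo share the animal, and the libraries of a group come from separate embryos.

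Promoter windows were available from RefSeq (GRCm38.p6) for 37 of the 57 genes, each running from 250 bases before to 50 after the annotated start. The windows of 5 genes on which the results turn are shown 5′ to 3′ on the coding strand, with every CpG in capitals, because CpG density is the sequence feature most often linked with Polycomb targets. Coordinates of the windows are 1-based. Barx1 lies at chr13:48662786-48663085 on the plus strand, Nkx2-9 at chr12:56613235-56613534 on the minus strand, Six2 at chr17:85688205-85688504 on the minus strand, Twist1 at chr12:33957421-33957720 on the plus strand and Irx2 at chr13:72628570-72628869 on the plus strand.
Barx1: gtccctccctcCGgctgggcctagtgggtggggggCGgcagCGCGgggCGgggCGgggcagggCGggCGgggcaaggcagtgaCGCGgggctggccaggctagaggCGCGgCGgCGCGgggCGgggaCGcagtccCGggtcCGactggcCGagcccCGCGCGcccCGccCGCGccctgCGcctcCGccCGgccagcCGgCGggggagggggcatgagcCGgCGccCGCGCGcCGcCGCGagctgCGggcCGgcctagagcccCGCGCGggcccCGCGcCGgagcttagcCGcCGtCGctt
Nkx2-9: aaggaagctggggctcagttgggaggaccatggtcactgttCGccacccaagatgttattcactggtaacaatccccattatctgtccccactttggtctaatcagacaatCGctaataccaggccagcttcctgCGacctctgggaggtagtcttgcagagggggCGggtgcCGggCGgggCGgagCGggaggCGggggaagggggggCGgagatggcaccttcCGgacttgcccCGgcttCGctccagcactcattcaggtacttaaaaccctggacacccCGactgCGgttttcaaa
Six2: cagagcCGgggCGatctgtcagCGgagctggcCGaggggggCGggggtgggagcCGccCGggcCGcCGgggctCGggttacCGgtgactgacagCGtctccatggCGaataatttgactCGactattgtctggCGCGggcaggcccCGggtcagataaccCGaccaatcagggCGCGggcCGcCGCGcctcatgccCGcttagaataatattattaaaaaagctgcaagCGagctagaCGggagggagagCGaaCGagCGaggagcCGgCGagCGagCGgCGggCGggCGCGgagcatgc
Twist1: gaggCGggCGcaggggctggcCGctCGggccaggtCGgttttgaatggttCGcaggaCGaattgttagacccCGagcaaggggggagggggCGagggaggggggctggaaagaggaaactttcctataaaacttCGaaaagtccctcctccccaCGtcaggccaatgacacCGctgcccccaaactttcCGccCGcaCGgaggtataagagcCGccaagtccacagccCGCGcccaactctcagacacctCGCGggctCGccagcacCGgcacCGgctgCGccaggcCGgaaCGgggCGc
Irx2: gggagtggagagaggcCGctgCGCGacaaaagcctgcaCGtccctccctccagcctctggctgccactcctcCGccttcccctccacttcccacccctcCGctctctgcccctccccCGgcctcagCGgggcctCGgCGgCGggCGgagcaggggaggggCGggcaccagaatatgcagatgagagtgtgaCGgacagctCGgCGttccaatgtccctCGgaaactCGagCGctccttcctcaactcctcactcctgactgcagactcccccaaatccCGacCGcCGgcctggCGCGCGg
The 300 bases of Barx1 held 50 CpG sites, those of Six2 37, Twist1 27, Irx2 25 and Nkx2-9 15. Over the 37 windows the median was 23 CpG sites, against 7 over all 27025 promoters in the table. The observed-to-expected CpG ratio was at least 0.6 in 27 of the 37 (73.0%), against 36.5% of all promoters. The motif TATAAA, searched on both strands, was present in 5 of the 37 (13.5%), namely Tbx4, Olig2, Meis2, Twist1 and Gsx2, and in 14.2% of all promoters. Nkx2-9, with a ratio of 0.571, fell below the CpG threshold and Barx1, with 0.940, above it. No Polycomb binding or histone data were analysed here, and these counts describe letters only.

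Wild type without a named cross means BDF1xCAST. Levels are given as CPM, reads over distinguishing polymorphisms per 1000000 such reads in the library, and are compared only within a gene. Totals ran from 1141414 to 3976031 reads per library outside the Rnf2 groups, and from 1847681 to 17653087 in the Rnf2 groups. Tests were edgeR quasi-likelihood tests across all genes that passed a filter on low counts, with Benjamini-Hochberg adjustment over all of them and a threshold of 0.05; a gene past it is called higher or lower. The counting is not stated to use strand, and rows of other genes overlap Nkx2-9, Tbx15, Msx1, Msx2, Dlx4, Gata2, Pax2, Pax6, Pax8, Pax9, Tbx1, Nkx2-2 and Lhx2 among the members named here, so reads of those pairs cannot be told apart. Most members had too few reads for that filter, so calls from the same test with no filter are given beside it. A member that passed the filter only because the knockout libraries were high had to differ, so counts among filtered members are not evidence for the group.

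The targeted mRNA was a partial check of the labels, since Cas9 indels need not lower it. Eed mRNA was 9.38 ± 5.59 CPM (SD, n = 9) in Eed epiblast against 157 ± 54.5 (n = 7), and all 9 libraries and all 10 in ExE lay below the lowest wild type. Rnf2 mRNA was 26.5 ± 6.42 (n = 6) against 45.3 ± 9.58 CPM in epiblast, but 35.2 ± 16.9 (n = 5) against 45.5 ± 16.6 in ExE with none of 5 below the lowest wild type, so those are written as the ExE libraries labelled Rnf2. Dnmt1 mRNA in Dnmt1 ExE was below the lowest wild type in 2 of 3 libraries (edgeR adjusted p = 0.137), and Ehmt1 in G9a-Glp epiblast in 2 of 6 (0.263). Ehmt2 in G9a-Glp epiblast was at 3.07 ± 1.43 CPM (n = 6) against 3.07 ± 2.27 in wild type, with 0 of 6 below the lowest, so the mRNA does not check that label. The tissue labels were checked on defining markers: wild-type epiblast had Fgf5 at 382 CPM and Otx2 at 40.1, wild-type ExE had Elf5 at 265 CPM against 1.29 in epiblast, while Pou5f1 was at only 0.635 CPM in epiblast. Wild-type epiblast embryo 8, the shallowest of its group at 1311863 reads, stood apart: its summed visceral endoderm markers reached 1181 CPM, its primitive streak markers 1294, and 34 members had a read in it, against 13 to 23 in the other 6.

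Without a knockout, most members had few reads over polymorphisms in either tissue. A low value need not mean that a gene was silent, since Pou5f1 was low in epiblast too. The members described next differed between the tissues. Foxd3, a forkhead factor of pluripotent epiblast and neural crest, was at 22.8 CPM in the lowest wild-type epiblast library, 33.6 in the median and 80.0 in the highest. In wild-type ExE it had 3 reads in all 7 libraries against 615 in epiblast, a ratio of pooled rates of 0.00406 (95% counting interval 0.000834 to 0.0119). Sox9, a regulator of cartilage and gonad, ran from 4.44 through a median of 9.70 to 18.3 CPM in epiblast and had no read in ExE. Both genes were therefore separated fully by tissue.

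Other genes were higher in ExE. Irx2, an Iroquois homeobox gene, ran from 32.0 through 50.8 to 146 CPM in wild-type ExE and from 0 through 0.807 to 5.34 in epiblast. Gata3, which is needed in trophoblast, ran from 5.27 through 12.3 to 19.3 CPM in ExE and from 0 through 0 to 1.52 in epiblast. Msx2, a homeobox effector of BMP signalling, ran from 5.34 through 10.8 to 17.5 CPM in ExE and from 1.65 through 2.83 to 4.22 in epiblast. None of these ranges overlapped. Of the 6 members that passed the filter in this comparison, 3 were higher in ExE (Irx2 by 5.64 ± 0.50, Gata3 by 5.38 ± 0.61 and Msx2 by 2.01 ± 0.32 on the log2 scale, ± SE) and 3 lower (Foxd3, Sox9 and Msx1), where 27.9% and 28.7% of all genes tested were higher and lower. Of these 6, 3 passed the filter only through the ExE libraries and 3 through the epiblast libraries. The filtered counts are therefore not evidence for the group. With no filter 5 of 49 members were higher and 11 lower, against 13.0% and 21.7% of all genes. Both counts were near those shares, so they are not a result about the members as a group. The lower ones then included Gata4, Meis2 and Twist1, and the higher ones Dlx3 and Tbx15.

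In ExE labelled Eed, genes of nearly every family were higher than in wild type. Barx1, a homeobox gene of stomach and facial mesenchyme, lay between 0 and 1.67 CPM in wild-type ExE with a median of 0.327, and between 26.1 and 68.8 with a median of 45.1 in the 10 Eed libraries. Nkx2-9, a floor-plate homeobox gene, lay between 0 and 0.745 (median 0.358) in wild type and between 5.08 and 48.2 (median 16.1) in Eed. Six2, which maintains kidney progenitors, lay between 0 and 2.98 (median 0.987) in wild type and between 8.53 and 29.5 (median 11.0) in Eed. In all 3 genes the lowest Eed library was above the highest BDF1xCAST wild type.

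The fitted changes were 6.06 ± 0.41 log2 units for Barx1 (edgeR adjusted p = 9.41e-10), 5.59 ± 0.60 for Nkx2-9 (4.76e-07) and 3.37 ± 0.43 for Six2 (3.32e-06). Irx4, a heart-ventricle gene, rose by 3.65 ± 0.52 with a median of 14.8 CPM in Eed against 0.329 in wild type. Gata4, a factor of endoderm and heart, rose by 4.81 ± 0.48 and lay between 4.92 and 16.1 CPM against 0 to 0.667. Dlx3, a distal-less gene with a known role in placenta, rose by 2.90 ± 0.44, and Dlx4, its neighbour on chromosome 11, had no read in wild-type ExE and 140 reads in Eed, at least 32.0-fold higher over the group. Gata2 (2.92 ± 0.58), Tbx20 (1.97 ± 0.37), Tbx15 (1.43 ± 0.34) and Msx2 (1.21 ± 0.28) also rose, and their ranges overlapped wild type.

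One of the ExE genes fell. Irx2 lay between 8.98 and 43.0 CPM with a median of 26.2 in Eed ExE, lower by 1.47 ± 0.29 log2 units (edgeR adjusted p = 0.000379) with overlapping ranges. Gata3, also higher in wild-type ExE than in epiblast, did not differ beyond error (fitted log2 difference -0.01, edgeR adjusted p = 0.99), with 7.96 to 20.3 CPM in Eed. Msx2, likewise higher in wild-type ExE, rose as given above. In this comparison 11 of 15 filtered members were higher and 1 lower, against 22.7% and 18.1% of all genes tested, and 10 of the 15 passed the filter only through the Eed libraries.

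With no filter, 31 of the 52 members with a read were higher in Eed ExE and 1 lower, against 16.5% and 8.28% of all genes, and the median log2 change was 2.70 for the members and 0.43 for all genes. Among the genes added, Sox9 had no read in wild-type ExE and lay between 1.29 and 5.28 CPM in all 10 Eed libraries, at least 23.3-fold higher over the group. Pax7, a muscle and neural crest factor, was at least 21.3-fold higher and Tbx1, a pharyngeal factor, at least 15.6-fold, both from 0 wild-type reads. Pax9, a factor of pharynx and teeth, had 1 wild-type read and 134 in Eed, a ratio of 92.0 (95% counting interval 16.2 to 3660), though the reciprocal wild type had more reads of it. The paired-box genes Pax2, Pax3, Pax6, Pax7 and Pax9 (5 of 6), and the distal-less genes Dlx2, Dlx3, Dlx4 and Dlx5 (4 of 6), were among the 31. Foxd3, Irx5, Olig2, Neurog2 and Gsx2 were not called, and 2 members, Dlx6 and Tbx2, had no read in either group.

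**Figure D1:**
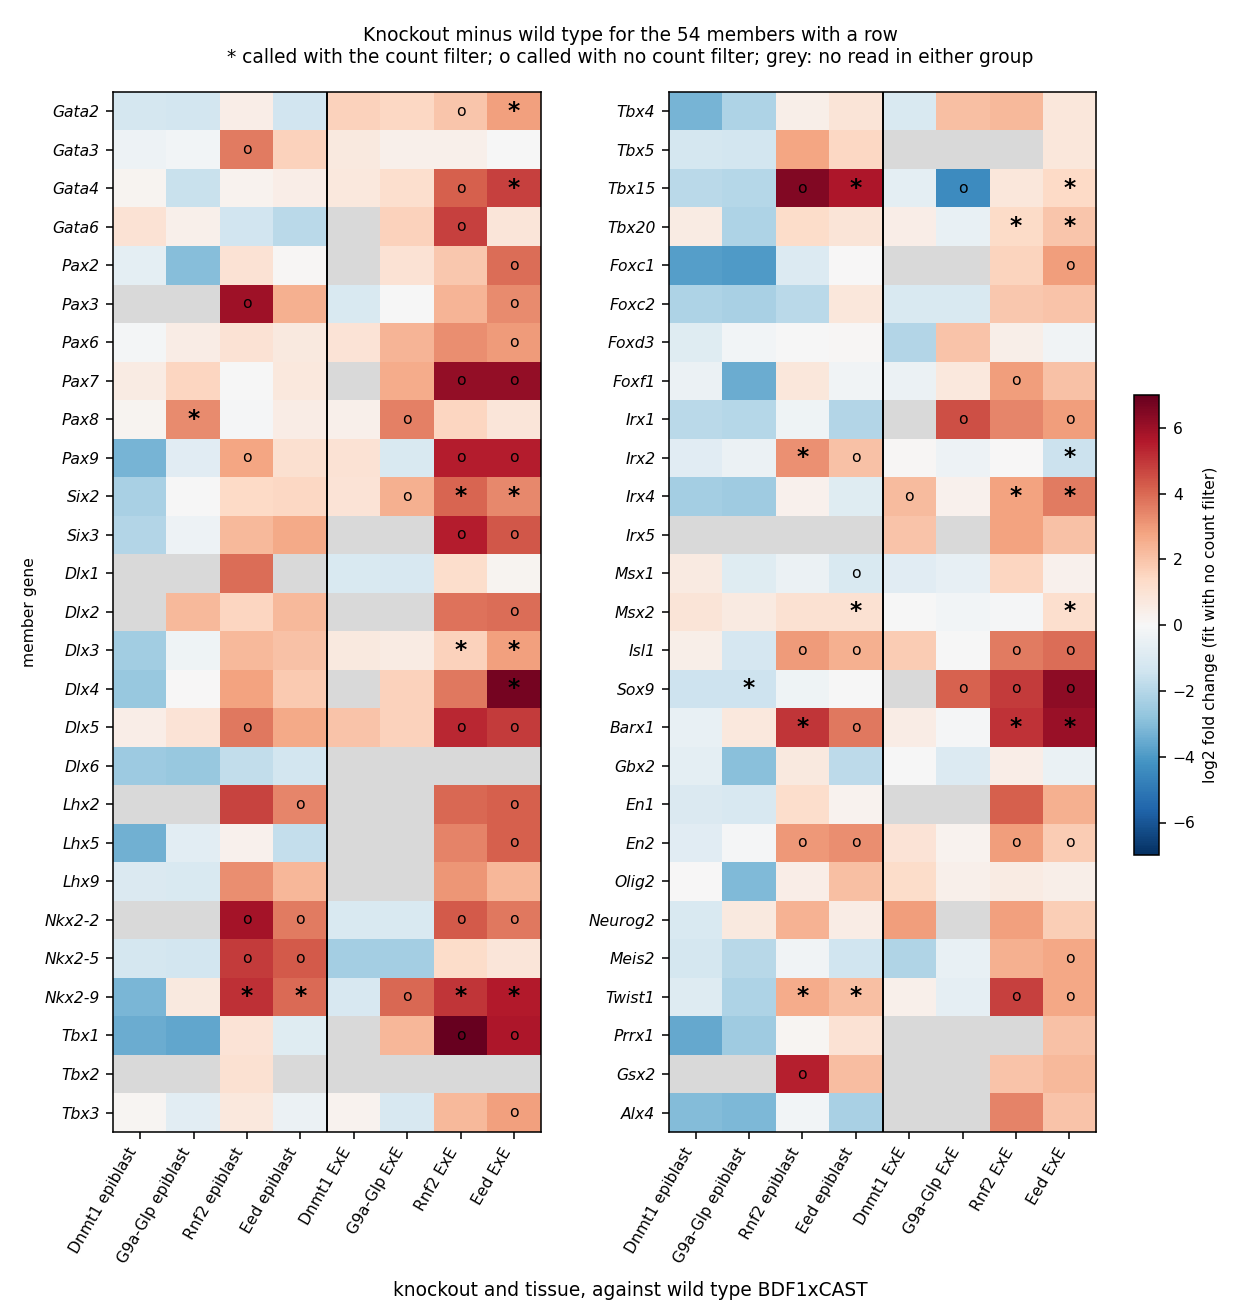
Log2 difference between each knockout and wild type BDF1xCAST of the same tissue (colour, from the fit with no count filter) for the 54 members with a row, in epiblast on the left of each panel and ExE on the right. The Eed ExE column holds 31 members called higher with no filter, and the Dnmt1 columns hold 1.

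In ExE labelled Rnf2, many of the same kinds of gene were high. Barx1 was at 23.6, 12.3, 9.74, 25.7 and 26.7 CPM in embryos 2, 4, 5, 6 and 7. Six2 was at 16.2, 15.1, 17.9, 35.0 and 23.4 CPM in the same order. Nkx2-9 was at 13.0, 5.46, 28.7, 11.2 and 7.29 CPM. Every library was above the highest BDF1xCAST wild type for each of these 3 genes, whose changes were 5.08 ± 0.53, 4.09 ± 0.44 and 5.03 ± 0.60 log2 units (edgeR adjusted p = 1.21e-05, 1.35e-05 and 3.30e-05).

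Irx4 was at 9.78, 9.16, 7.58, 5.73 and 5.14 CPM, all above the wild-type maximum of 3.09 (2.83 ± 0.56, edgeR adjusted p = 0.00219). Tbx20, a heart T-box gene, was at 8.15, 9.06, 8.66, 11.8 and 9.29 CPM, above the wild-type maximum of 6.33 (1.37 ± 0.31, p = 0.00579). Dlx3 was at 10.6, 30.5, 8.12, 17.4 and 8.72 CPM and overlapped the wild-type maximum of 10.2 (1.61 ± 0.52, edgeR adjusted p = 0.0367). That call was lost in 7 of 21 alternative fits (p up to 0.163), 5 of which left out 1 library, Rnf2 embryo 4 or 6 or wild-type embryo 2, 3 or 4. In all, 6 of 12 filtered members were higher and none lower (0 lower also at an unadjusted edgeR p under 0.05 and by DESeq2), against 12.2% and 9.99% of all genes tested, and 7 of the 12 passed through the knockout libraries only. In 3 libraries Rnf2 mRNA was not below the second-lowest wild-type library. Without those 3, which left 2, Barx1, Nkx2-9 and Six2 stayed called, while Dlx3, Tbx20 and Irx4 were lost (edgeR adjusted p = 0.127, 0.113 and 0.0604) and En2 was gained. Rnf2 mRNA in the 2 left was not below the lowest wild type either, so this subset does not check the label.

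With no filter 20 of 50 members were higher and none lower, against 7.41% and 4.69% of all genes, with a median log2 change of 2.90 for the members and 0.07 for all genes. Tbx1 was at 2.34, 1.75, 2.16, 5.12 and 5.14 CPM against no wild-type read, at least 22.4-fold higher. Pax7 was at least 13.3-fold higher and Pax9 had a ratio of 70.5 (12.4 to 2805). Twist1, a bHLH factor of mesoderm and neural crest, was at 3.87, 1.27, 6.49, 3.42 and 3.86 CPM against 0 to 0.745 in wild type, a ratio of 32.2 (8.73 to 269). Gata4 was at 8.66, 3.22, 3.79, 4.39 and 5.29 CPM against at most 0.667. Irx2 (fitted log2 difference 0.03), Gata3 (0.38) and Tbx15 (0.81) were tested and not called.

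In epiblast labelled Rnf2, fewer members were called, with large changes. Barx1 lay between 11.2 and 21.9 CPM with a median of 16.2, and between 0 and 3.81 with a median of 0 in wild type. Nkx2-9 lay between 9.74 and 30.3 (median 12.6) against 0 to 1.09 (median 0.419). Irx2 lay between 7.42 and 19.6 (median 9.20) against 0 to 5.34, and Twist1 between 4.97 and 14.2 (median 9.38) against 0 to 3.81. All 6 Rnf2 libraries exceeded all 7 wild types for each of the 4 genes. The changes were 4.94 ± 0.63 for Barx1, 5.08 ± 0.56 for Nkx2-9, 3.15 ± 0.54 for Irx2 and 2.53 ± 0.54 for Twist1 (edgeR adjusted p = 3.67e-05, 1.10e-05, 0.000447 and 0.00242).

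These were the 4 of 10 filtered members called higher, with none lower (0 also at an unadjusted edgeR p under 0.05 and by DESeq2), against 18.0% and 13.0% of all genes tested, and 5 of the 10 passed only through the knockout. The Rnf2 epiblast libraries were deeper than wild type, at 5549733 to 17653087 reads against 1311863 to 3028267, and thinned to wild-type depth the same 4 genes were called. Without wild-type embryo 8, 7 were called, with Isl1, Tbx15 and Tbx20 added. With no filter 14 of 53 were higher and none lower, against 7.38% and 2.67% of all genes, with a median of 1.09 for the members and 0.18 for all genes. Tbx15, a limb and craniofacial T-box gene, lay between 2.83 and 19.1 CPM (median 14.7) and had 2 wild-type reads, both in embryo 8, a ratio of 110 (30.3 to 908). Without embryo 8 the fitted change of Tbx15 was 9.26 ± 0.99 against no wild-type read, a value that depends on the count added at 0, and that of Barx1 was 6.19 ± 0.56. Nkx2-5, the cardiac homeobox gene, had a ratio of 35.5 (6.24 to 1413) over 1 wild-type read, and Pax3 was at least 7.11-fold higher from none.

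In epiblast labelled Eed, 4 of 8 filtered members were called higher and none lower (1 lower at an unadjusted edgeR p under 0.05 and 1 by DESeq2), against 19.2% and 16.5% of all genes tested, and 5 of the 8 passed only through the knockout. Tbx15 lay between 2.79 and 15.1 CPM, above every wild-type library, a ratio of 82.2 (22.5 to 683) over the same 2 wild-type reads (fitted change 5.64, and 7.50 without embryo 8). Nkx2-9 lay between 3.79 and 18.5 (median 7.06), also above every BDF1xCAST wild type (3.98 ± 0.56, edgeR adjusted p = 3.17e-05). Twist1 lay between 2.57 and 15.4 (median 7.56) and overlapped wild type (2.12 ± 0.51, 0.00333). Msx2 lay between 1.54 and 15.2 (median 6.66) and overlapped too (1.05 ± 0.38, 0.0357), and its call was lost in 9 of 23 alternative fits, with an edgeR adjusted p of up to 0.213.

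Barx1 was below the count filter in this comparison and is described with no filter: 3.52 to 16.8 CPM (median 6.83) in Eed epiblast, where 2 of 9 libraries were under the wild-type maximum of 3.81, reached in embryo 8. With no filter 10 of 51 members were higher and 1 lower (Msx1), against 8.22% and 8.12% of all genes, with medians of 0.91 and -0.11. The 10 were Lhx2, Nkx2-2, Nkx2-5, Nkx2-9, Tbx15, Irx2, Isl1, Barx1, En2 and Twist1. No Pax, Dlx or GATA gene was among them. Without wild-type embryo 8, 1 or 7, the filtered count rose from 4 to 6 with Barx1 and Irx2 added, and without Eed embryo 9 it fell to 3.

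**Figure D2:**
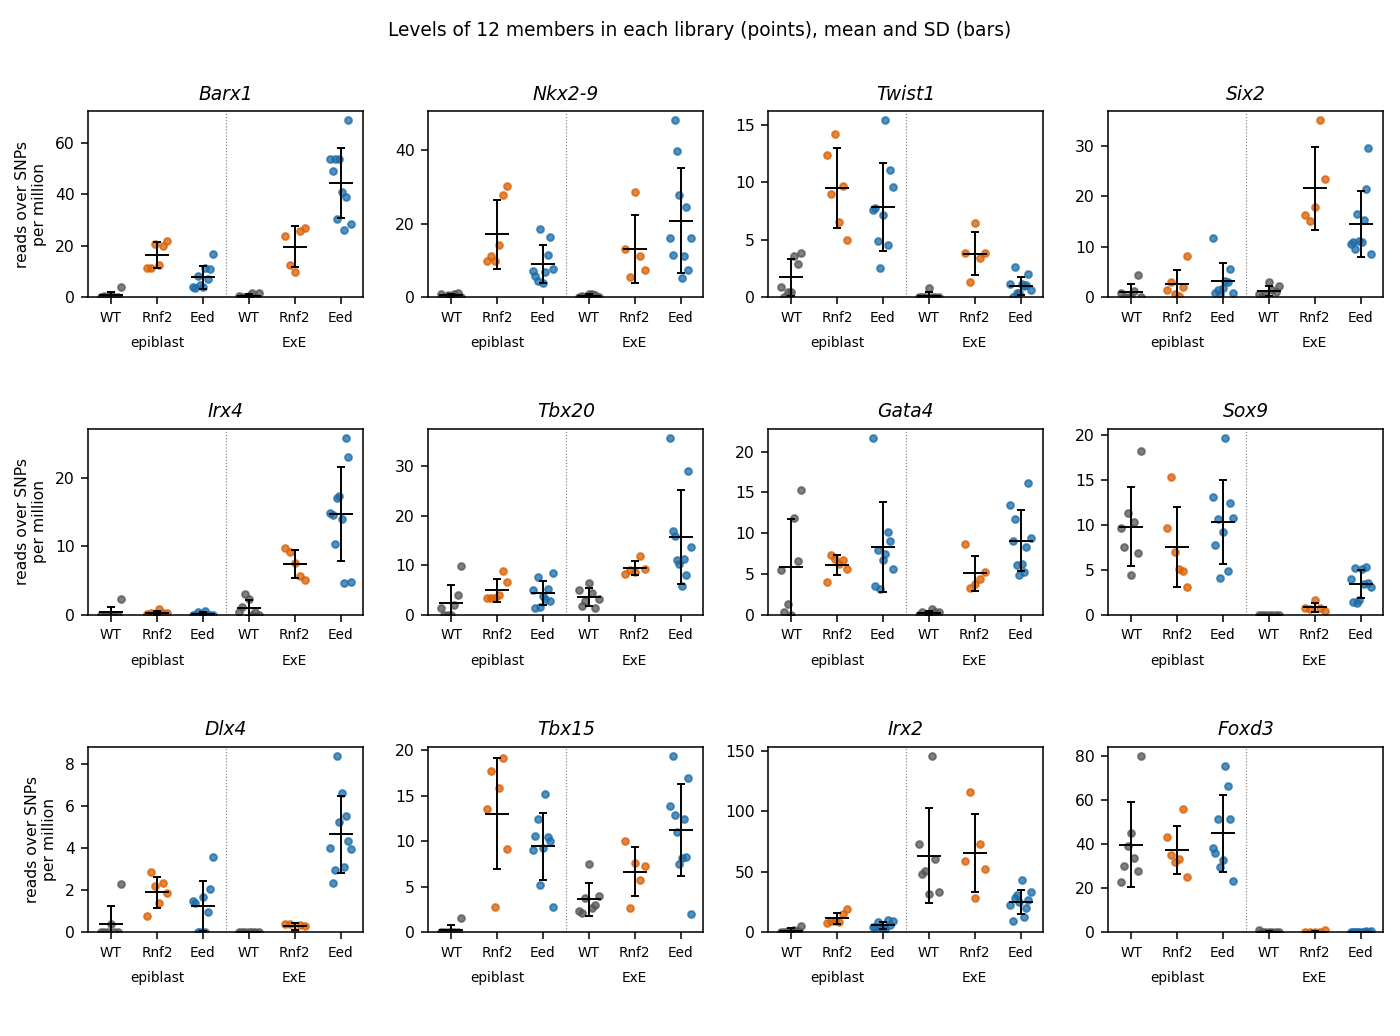
CPM of 12 members in every library of wild type BDF1xCAST, Rnf2 and Eed (points), with mean and SD (bars), epiblast left and ExE right of the dotted line. Barx1 and Nkx2-9 were high in all 4 groups labelled Rnf2 or Eed, Six2 and Irx4 stood above wild type in both ExE groups so labelled, and Foxd3 was at 22.8 to 80.0 CPM in all epiblast groups shown.

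Foxd3, Sox9, Gata4 and Msx1, which had reads in wild-type epiblast, were not called in that tissue with the filter in Rnf2 or Eed. Foxd3 lay between 25.3 and 55.9 CPM (median 34.0) in Rnf2 epiblast and between 23.1 and 75.4 (median 38.3) in Eed epiblast, against 22.8 to 80.0 in wild type, with fitted log2 differences of -0.09 and 0.07. Sox9 lay between 3.12 and 15.4 CPM in Rnf2 epiblast and between 4.11 and 19.7 in Eed epiblast, against 4.44 to 18.3, with differences of -0.37 and -0.04. Gata4 lay between 3.97 and 7.28 CPM and between 3.08 and 21.7 against 0 to 15.2, with differences of 0.13 and 0.45. Msx1 lay between 4.57 and 29.7 CPM in Eed epiblast against 8.26 to 109 in wild type, with the maximum in embryo 8. Its fitted difference was -1.16 (edgeR adjusted p = 0.051). Msx1 was called lower with no filter and without wild-type embryo 1 (-1.27, edgeR adjusted p = 0.0457). Leaving out Eed embryo 1 or 8 or wild-type embryo 1, 2, 3 or 4 gave 1 member lower. The other fits without 1 library gave 0. Some primitive streak markers were lower in the epiblast libraries of both knockouts. In Eed epiblast 3 of 7 tested were called lower and none higher, against 16.5% and 19.2% of all genes. In Rnf2 epiblast 2 of 7 were called lower and none higher, against 13.0% and 18.0%. With no filter 4 of 10 were lower and 1 higher in Eed (8.12% and 8.22% of all genes). In Rnf2 4 of 10 were then lower and 0 higher (2.67% and 7.38%). Mixl1, a streak homeobox gene, fell by 3.67 ± 0.81 log2 units in Eed and fell by 5.06 ± 0.96 in Rnf2. Fgf8, another marker on the list, had higher means, at 77.3 CPM in Eed and 48.0 in Rnf2 against 31.7 in wild type. The 10 markers summed to 46.6 to 1294 CPM in wild type, 70.6 to 575 in Eed and 56.5 to 358 in Rnf2, and their part in the level of Msx1 was not tested.

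The difference between tissues was tested as an interaction, ExE effect minus epiblast effect. For Eed, Gata4 (4.38 ± 0.87, edgeR adjusted p = 0.000586), Sox9 (6.25 ± 0.82, p = 2.80e-06) and Dlx4 (4.69 ± 1.54, p = 0.0359) had larger effects in ExE. Tbx15 (-4.21 ± 0.78, p = 0.000227) and Irx2 (-3.51 ± 0.59, p = 5.54e-05) had larger effects in epiblast, and Irx2 moved in opposite directions in the 2 tissues. The fitted values of Sox9 and Dlx4 depend on the count added to groups at 0, since wild-type ExE had no read of either gene. These were 3 higher and 2 lower of 19 members tested, against 9.29% and 6.59% of all genes. The filter could keep a member through the libraries where it was high, so these counts are not evidence for the members as a group. With the embryo as a block, which pairs the 2 tissues of 1 embryo, the Dlx4 call was lost (adjusted p = 0.0705).

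For Rnf2, Gata4 (4.06 ± 1.00, edgeR adjusted p = 0.0110) and Sox9 (5.31 ± 1.15, p = 0.00601) again had larger effects in ExE. Tbx15 (-5.63 ± 0.90, p = 0.000201), Irx2 (-3.16 ± 0.64, p = 0.00242) and Gata3 (-3.24 ± 0.84, p = 0.0166) had larger effects in epiblast. That is 2 higher and 3 lower of 18, against 2.03% and 4.79% of all genes, and the same limit of the filter holds. With the embryo as a block the Gata3 and Sox9 calls were lost (adjusted p = 0.0922 and 0.0632). The Eed and Rnf2 interactions share the wild-type libraries, so the 2 lists are not independent of each other.

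The interaction contains the wild-type difference between tissues, so the wild-type levels of these genes are not separate evidence. Gata4 and Sox9 had their wild-type reads mainly in epiblast and rose in ExE, where Sox9 reached 0.713, 0.585, 1.62, 0.732 and 0.429 CPM in the Rnf2 libraries. Irx2 and Tbx15 were higher in wild-type ExE than in wild-type epiblast and rose in epiblast. For Barx1 (2.38 ± 1.01 for Eed, edgeR adjusted p = 0.107), Nkx2-9 (1.63 ± 1.04, p = 0.305), Six2 (1.94 ± 0.93, p = 0.157) and Irx4 (4.18 ± 1.64, p = 0.0781) the difference between tissues was not called, so a larger effect in ExE was not shown for them.

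**Figure D3:**
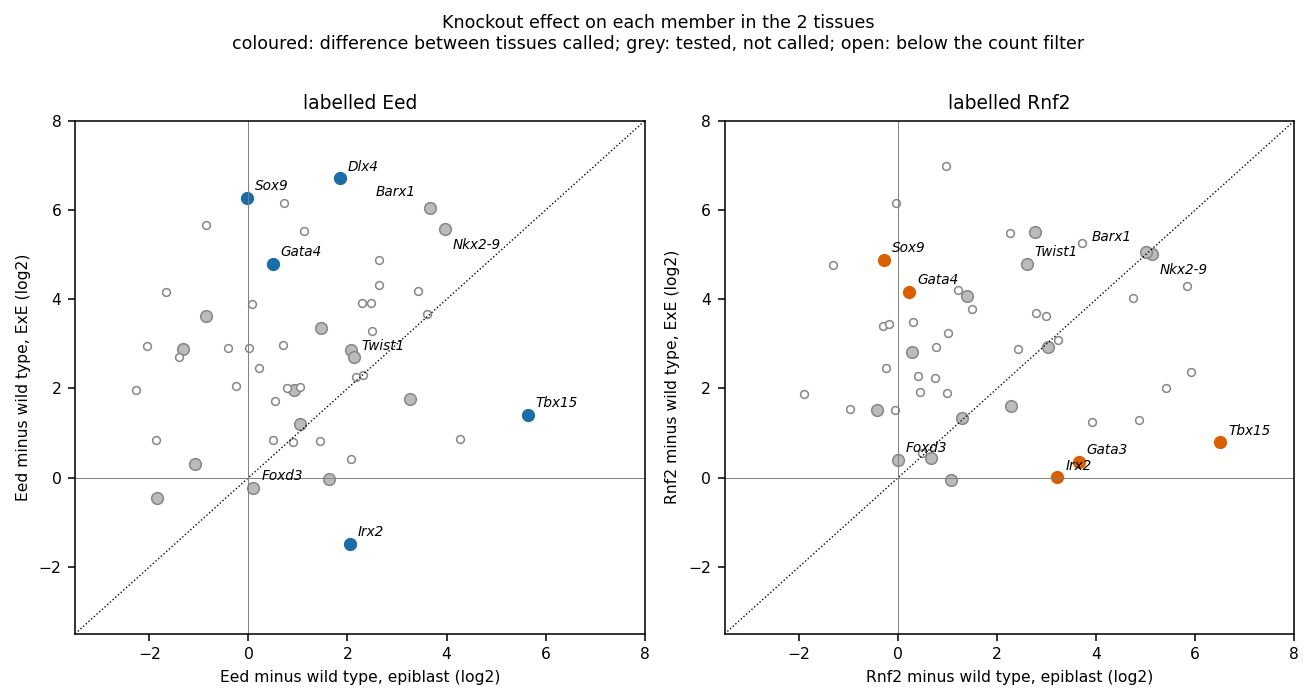
Log2 effect of each knockout on each member in epiblast (x axis) and ExE (y axis), from the fit with no count filter, for Eed (left) and Rnf2 (right), with the dotted line marking equal effects. Gata4 and Sox9 lie above the line and Tbx15 and Irx2 below it in both panels, while Barx1 and Nkx2-9 lie high on both axes.

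The 2 Polycomb knockouts were then compared directly. In ExE, Eed libraries exceeded those labelled Rnf2 for Dlx4 (3.58 ± 0.43 log2 units, edgeR adjusted p = 4.03e-05), Sox9 (2.14 ± 0.45, p = 0.00402), Dlx3 (1.28 ± 0.36, p = 0.0229), Msx2 (1.26 ± 0.29, p = 0.00669) and Barx1 (1.03 ± 0.23, p = 0.00669). Dlx4 lay between 2.36 and 8.38 CPM in all 10 Eed libraries and at 0.408, 0.390, 0, 0.366 and 0.286 in the 5 Rnf2 libraries, with no overlap. Irx2 was lower in Eed than in Rnf2 (-1.48 ± 0.29, p = 0.00251), as was En2 (-1.13 ± 0.38, p = 0.0499), a midbrain homeobox gene whose call sat at the threshold. Those were 5 higher and 2 lower of 19, against 9.47% and 5.01% of all genes. Of the 19, 6 passed the filter only through the Eed libraries and 10 through the Rnf2 libraries. These counts are therefore not evidence for the members as a group. Six2 (-0.69 ± 0.26, p = 0.0832), Nkx2-9 (0.63 ± 0.45, p = 0.371), Irx4 (0.83 ± 0.32, p = 0.0820), Gata4 (0.70 ± 0.31, p = 0.134) and Tbx20 (0.61 ± 0.32, p = 0.215) were not called.

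In epiblast the order for Barx1 was the other way round. Barx1 was lower in Eed than in Rnf2 by 1.15 ± 0.31 log2 units (edgeR adjusted p = 0.0378), the only call among 14 members, with none higher (0 also at an unadjusted edgeR p under 0.05 and by DESeq2), against 2.34% lower and 1.62% higher of all genes. Irx2 (-1.05 ± 0.33, p = 0.0681) and Nkx2-9 (-1.01 ± 0.36, p = 0.115) were not called, nor were Tbx15 (-0.54 ± 0.34, p = 0.399) and Twist1 (-0.37 ± 0.31, p = 0.553). Of the 14 members, 3 passed the filter only through the Eed libraries and 8 through the Rnf2 libraries. The count in epiblast is therefore not evidence for the members as a group either. The remaining Rnf2 or Eed activity in each embryo was not measured, and the Rnf2 mRNA values in ExE stand above.

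**Figure D4:**
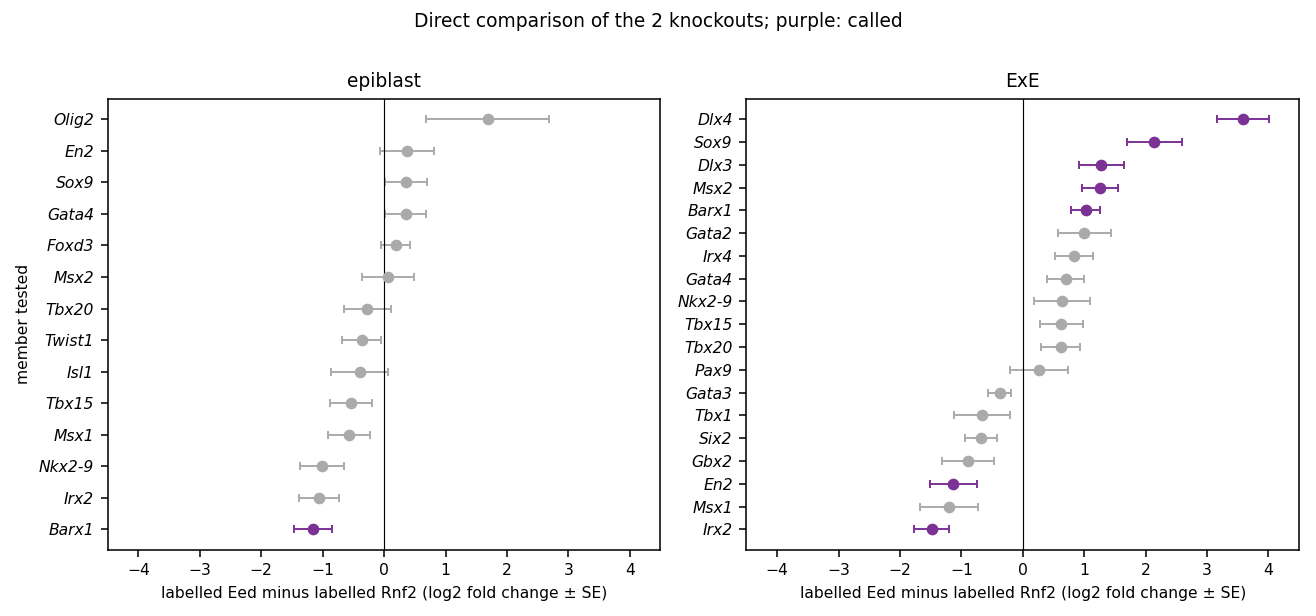
Log2 difference ± SE between Eed and Rnf2 libraries for the members tested in epiblast (14, left) and ExE (19, right), ordered by size, with called genes in purple. Barx1 is the lowest point in epiblast and among the 5 called higher in ExE, where Dlx4 leads at 3.58.

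Markers of other cell types moved with the ExE comparisons. The summed differentiated trophoblast markers (8 of 10 with a row) ran from 48.6 to 1280 CPM in wild-type ExE, 430 to 2560 in Rnf2 and 613 to 6356 in Eed, with Prl3d1, Prl3b1 and Ctsq at 0 in all 3 groups. In the 3 Eed libraries (embryos 1, 2 and 9) at or below the wild-type maximum of that sum, Barx1 was at 49.1 to 68.8 CPM, Gata4 at 8.98 to 16.1, Six2 at 10.6 to 29.5, Irx4 at 14.6 to 23.2 and Nkx2-9 at 7.47 to 16.0, all above every BDF1xCAST wild type. Those 3 libraries had visceral endoderm sums of 1220, 1494 and 1096 CPM, above the wild-type maximum. Visceral endoderm markers summed to 222 to 529 CPM in wild-type ExE, 521 to 896 in Rnf2 (4 of 5 above the wild-type maximum, with Apoe and Amn called higher) and 341 to 1494 in Eed, beside the rises of Gata4. Apoe made up most of the endoderm sum, with means of 352 of 374 CPM in wild type, 681 of 724 in Rnf2 and 701 of 764 in Eed. Foxa2, Sox17 and Cer1 were at 0 in wild-type ExE. Plac1 led the trophoblast sum, with a mean of 379 of 516 CPM in wild type. It made up 930 of 1368 in Rnf2 and 2490 of 3072 in Eed. Both sums thus mostly follow single genes. In the 4 Eed libraries within the wild-type endoderm range (embryos 3, 4, 6 and 10) Gata4 was at 6.12 to 11.8, above wild type, while Tbx15 (lowest 1.99), Tbx20 (5.86) and Msx2 (11.1) reached into it. These 4 had trophoblast sums of 3637 to 6356 CPM, so no Eed library lay within both wild-type ranges, and the part of cell makeup in these rises was not tested. Stem-like ExE markers summed to 1124 to 1836 CPM in wild type, 854 to 1643 in Rnf2 and 484 to 1058 in Eed. Irx2 fell in Eed ExE and was not called in Rnf2 ExE. The part of these markers in the fall of Irx2 was not tested. In epiblast the trophoblast sum ran from 13.2 to 32.0 CPM in wild type, 41.5 to 105 in Rnf2 and 37.3 to 95.9 in Eed. Cdkn1c was its largest part there, at means of 8.37 of 19.1, 30.7 of 70.0 and 28.9 of 59.1 CPM in that order. The sum stood beside the rises of Barx1, Nkx2-9, Tbx15 and Twist1, and its part in them was not tested. In bulk tissue fewer cells of a type and less RNA per cell cannot be told apart.

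The reciprocal wild type showed how far these genes can vary without a knockout. Nkx2-9 was at 0.894, 7.52, 0.566 and 1.37 CPM in CASTxBDF1 ExE, and at 1.11, 6.48, 0 and 0 in the epiblast of the same embryos 1 to 4. Dlx3 was at 2.68, 20.4, 5.10 and 3.29 CPM in that ExE. Embryo 2 was the high one for both genes, and its values lay within the range of the Eed or Rnf2 libraries. Pax9 had 18 reads in those 4 ExE libraries, with a mean of 1.30 and a maximum of 3.58 CPM, against means of 4.60 in Eed ExE and 3.52 in Rnf2 ExE. Sox9 was at 4.08 ± 1.68 CPM (SD, n = 4) in CASTxBDF1 epiblast, between 2.53 and 6.10, which overlaps its range in the G9a-Glp and Dnmt1 epiblast. Barx1 reached 4.94 CPM in CASTxBDF1 ExE, below the lowest Rnf2 library at 9.74, and Six2 reached 3.87, below 15.1.

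No filtered member was called in the libraries labelled Dnmt1. In epiblast 6 members passed the filter and none was called, against 6.94% higher and 7.16% lower of all genes, with 0 higher and 2 lower at an unadjusted edgeR p under 0.05, and DESeq2 called 1 lower. Sox9 was at 5.63, 2.63 and 3.35 CPM (fitted difference -1.46 ± 0.47, edgeR adjusted p = 0.0538). In ExE 8 passed and none was called, against 8.54% and 9.96%, with none at an unadjusted edgeR p under 0.05 and none by DESeq2. With no filter Irx4 was called higher there, 1 of 34, against 4.90% higher and 4.92% lower of all genes, at 8.15, 6.43 and 2.58 CPM against 0 to 3.09 in wild type. Barx1 was at 0, 0 and 1.34 CPM in Dnmt1 epiblast and at 0, 0.585 and 2.15 in ExE, within or close to the wild-type range.

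In the libraries labelled G9a-Glp a different gene led. Pax8, a thyroid and kidney paired-box gene, lay between 4.89 and 19.2 CPM (median 11.7) in epiblast against 0 to 6.10 (median 0.726) in wild type, higher by 3.28 ± 0.61 log2 units (edgeR adjusted p = 0.000501). Sox9 lay between 1.55 and 6.02 CPM (median 3.64), lower by 1.46 ± 0.38 (p = 0.00613) with overlapping ranges. These were 1 higher and 1 lower of 4 filtered members, against 19.6% and 15.0% of all genes. Pax8 was the 1 of the 4 that passed the filter only through the knockout libraries, so it had to differ. Pax8 was named after its values were seen. In Rnf2 and Eed epiblast it was not called, with no-filter log2 differences of -0.06 and 0.50.

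In G9a-Glp ExE none of 4 filtered members was called, against 8.50% higher and 6.66% lower of all genes, with none at an unadjusted edgeR p under 0.05 and none by DESeq2. With no filter 5 of 39 were higher (Pax8, Six2, Nkx2-9, Irx1 and Sox9) and 1 lower (Tbx15), against 5.41% and 2.79%. Pax8 lay between 2.47 and 9.84 CPM (median 3.75) against at most 0.982 in wild type, and Nkx2-9 between 1.86 and 13.5 (median 6.85) against at most 0.745, with no overlap with BDF1xCAST for either. Tbx15 went the other way: it had 3 reads in 8 libraries and at most 0.550 CPM, against 2.15 to 7.45 in wild type. Barx1 lay between 0 and 1.49 CPM in these libraries, against 0 to 1.67.

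The parental alleles of the members were read where a library had at least 10 reads. Barx1 in Eed ExE came from the BDF1 allele at 61.4% ± 4.48 (SD, n = 10) and in Rnf2 ExE at 60.6% ± 4.98 (n = 5), and Irx4 in Eed ExE at 48.6% ± 5.10 (n = 10). The median gene of each group lay at 53.6% to 54.3%, so both alleles of these genes contributed. Nkx2-9 was lower at 39.6% ± 11.0 in Eed ExE (n = 10) and 39.6% ± 10.9 in Rnf2 ExE (n = 5). Tbx20 leaned to BDF1 at 75.0% ± 9.02 in Eed ExE (n = 10), 81.8% ± 10.5 in Rnf2 ExE (n = 5) and 89.7% ± 12.3 in the 3 wild-type libraries with enough reads. It leaned to BDF1 also in ExE of the reciprocal cross, where BDF1 is the father, at 83.5% ± 23.3 (n = 2), though only 2 libraries could be read. The lean was not shown in epiblast. There Tbx20 was at 62.7% ± 21.5 in Rnf2 (n = 6), 53.2% ± 29.5 in Eed (n = 5) and 40.5% ± 46.0 in wild type (n = 2). Pax8 was at 76.3% ± 8.57 in G9a-Glp epiblast (n = 6) and 34.0% ± 24.6 in ExE (n = 4).

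Other developmental regulators outside the Hox clusters were a list of 121 genes with a row. In Eed epiblast 5 of 10 filtered genes were higher and 2 lower, against 19.2% and 16.5% of all genes tested. The counts were 6 and 4 of 11 in Eed ExE (22.7% and 18.1%) and 3 and 2 of 8 in Rnf2 epiblast (18.0% and 13.0%). They were 2 and 1 of 7 in Rnf2 ExE (12.2% and 9.99%). The limit given above for filtered members holds for these counts too. With no filter, 39 of 99 of these genes were higher and 6 lower in Eed ExE (16.5% and 8.28% of all genes), and 21 and 4 of 107 in Eed epiblast (8.22% and 8.12%). In Rnf2 ExE 26 of 89 were higher and 2 lower (7.41% and 4.69%), and in Rnf2 epiblast 20 and 3 of 118 (7.38% and 2.67%). Of the PRC1 subunits, Cbx8, a chromobox protein that reads the PRC2 mark, rose in Rnf2 epiblast (3.63 ± 0.57 log2 units), in Rnf2 ExE (1.60 ± 0.29) and in Eed ExE (1.32 ± 0.26). Of the PRC2 subunits, Mtf2 fell by 0.89 ± 0.17 in Rnf2 epiblast and by 0.64 ± 0.15 in Rnf2 ExE.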

How the data were processed

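For each RefSeq gene (mm10) the authors deposited, per the notes that came with the table, the count of reads over polymorphisms, both alleles summed and not normalized, and an allelic ratio score, the CAST share minus 0.5. STAR 2.5.0 and HTSeq are named in the submitters' processing notes, with no role given. Counts were scaled to CPM by the library total for display. Tests used edgeR 4.0.16 (R 4.3.3; TMM scaling, filterByExpr, quasi-likelihood F-test, two-sided), with SE taken as the log2 change divided by the square root of F. DESeq2 1.42.0, RLE scaling, other count filters, sex as a term, all groups in 1 fit, thinned Rnf2 libraries and an embryo-number block were alternatives. Libraries were also left out 1 at a time in each knockout comparison with wild type, in G9a-Glp only the knockout libraries. The test was checked on simulated counts. Allele shares used libraries with at least 10 reads of the gene, and a fold against a group at 0 used a floor of 3 reads over that group. Intervals cover counting error only.

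The members and gene lists were chosen with earlier results of these data known. Values for every library were given for members past the threshold with the largest log2 change and no overlap with wild type (up to 6 per tissue in Eed and Rnf2, up to 3 in Dnmt1 and G9a-Glp), for members at 10 CPM or more in wild type (up to 4 per tissue), and for up to 3 members in each interaction and each Eed against Rnf2 comparison. Pax8 and members described with no filter were added after their values were seen. Embryo numbers pair the 2 tissues of 1 embryo. For some Eed samples the embryo label and the number in the sample title pair the tissues differently, and the label was used. Between knockout and wild type the embryo numbers did not pair samples: in no comparison did every same-numbered pair correlate above 0.1 over 6726 genes. The bisulfite sample was not analysed here.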

Additional observations from a re-analysis of the deposited data

Results flagged for a closer look

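In 3 of 23 groups tested 1 library lay far from the rest, where chance gives about 1 in 20. Foxd3 was at 80.0 CPM in wild-type epiblast embryo 8, against 22.8 to 44.8 in the other 6. Msx1 was at 109 CPM in the same library, against 8.26 to 41.9. Irx2 was at 146 CPM in wild-type ExE embryo 6, against 32.0 to 73.4. Embryo 8 is also the library with the high visceral endoderm and primitive streak sums, whose part in these values was not tested.

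The effect of a knockout differed between ExE and epiblast by an interaction test for 10 pairs of member and knockout. For Eed the log2 differences were 4.38 for Gata4, 4.69 for Dlx4, -4.21 for Tbx15, -3.51 for Irx2 and 6.25 for Sox9. For Rnf2 they were -3.24 for Gata3, 4.06 for Gata4, -5.63 for Tbx15, -3.16 for Irx2 and 5.31 for Sox9. Wild-type ExE had no read of Sox9 or Dlx4, so those values depend on the fit's added count. The fit behind these 10 calls had no term for the embryo. With the embryo as a block, over embryos with both tissues, Dlx4 for Eed was lost (edgeR adjusted p = 0.0705). Gata3 and Sox9 for Rnf2 were lost too (0.0922 and 0.0632).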

How the results depend on the processing

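Of 52 calls on single members, 43 were kept in all the alternative fits that tested the member. The other 9 were lost in at least 1 and none reversed, and 26 of 744 such fits lost a call. Fits in which the member failed the filter were not counted, as for Dlx4 in Eed ExE, with 17 fits against 24 for Barx1. Interaction, Eed against Rnf2 and wild-type tissue calls had 5 or 6 fits each, none leaving out 1 library. Removing the count filter gave 1 higher in Dnmt1 ExE, 5 higher and 1 lower in G9a-Glp ExE, 14 in Rnf2 epiblast, 20 in Rnf2 ExE, 10 higher and 1 lower in Eed epiblast, 31 in Eed ExE, 5 higher and 11 lower for wild-type ExE against epiblast, 8 higher in the Eed interaction and 4 lower for Eed against Rnf2 in epiblast. A filter of at least 10 reads gave 9 in Rnf2 epiblast. All groups in 1 fit gave 1 higher in Dnmt1 ExE, 5 lower in G9a-Glp epiblast, 4 higher and 1 lower in G9a-Glp ExE, 8 in Rnf2 epiblast, 15 in Rnf2 ExE, 8 higher and 1 lower in Eed epiblast and 18 in Eed ExE. DESeq2 gave 1 lower in Dnmt1 epiblast, 1 lower in Eed epiblast, 6 higher in the Eed interaction and 2 lower for Eed against Rnf2 in epiblast, where thinning also gave 2; RLE scaling gave 1 lower in Eed epiblast. The cause was not tested. Where no share over all genes is given above for a setting, here or in the next paragraph, the count describes sensitivity only. Such a count is not evidence for the members as a group.

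The replicate block gave 1 higher in Dnmt1 epiblast, 1 higher in Dnmt1 ExE, 1 higher in the Rnf2 interaction and 3 lower for Eed against Rnf2 in epiblast. It also lost Dlx3 and Tbx20 in Rnf2 ExE and Sox9 in Eed against Rnf2 in ExE (edgeR adjusted p = 0.112). Leaving out 1 library gave 4 to 7 higher in Rnf2 epiblast, 5 to 7 in Rnf2 ExE, 3 to 6 higher and 0 to 1 lower in Eed epiblast, 10 to 12 in Eed ExE and 0 to 1 lower in Dnmt1 epiblast. En2 in Eed against Rnf2 in ExE was lost under 3 settings, with an adjusted p of up to 0.0739. Depth limits the rest: 34 of 54 members had a read in the Dnmt1 ExE comparison and 46 in Dnmt1 epiblast, and a change in the others was not detectable at this depth.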
